A study of Mus musculus with 6 samples.

Results

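The genes named Zfp followed by a number belong mostly to the C2H2 zinc finger family, the largest family of DNA-binding proteins in the mouse, and the 179 of them that lie on the minus strand were followed in WT and Nipbl+/- mouse embryonic fibroblasts (MEFs). They were taken by name and strand from the 38483 genes listed for each culture, and names starting with Zfp36 were left out. The Zfp36 protein itself carries another kind of finger that binds RNA. The rule goes by name, however, and also drops other numbered Zfp genes whose names have the same start. There were 6 such names, of which 4 lay on the minus strand. A further 174 numbered Zfp genes lie on the plus strand. Every culture had a count of 0 and an RPKM of 0 for each of the 19214 plus strand genes, so those 174 genes could not be followed here, and the values below come from the 19269 minus strand genes.

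MEFs are fibroblasts grown from the minced bodies of mouse embryos, here of the CD1 strain and at passage 3, with the limbs, brain and internal organs taken out first. The study compared 3 WT cultures with 3 cultures heterozygous for a knockout of Nipbl (Nipbl+/-), which encodes the protein that loads cohesin onto chromosomes. The WT embryos were littermates of the Nipbl+/- embryos, taken from a single pregnant mouse by the study's methods, and the cultures of both groups were grown in the same medium with fetal bovine serum, without any treatment. Total RNA was depleted of rRNA and sequenced, and the total count per culture lay between 20307454 and 25990783. The numbered Zfp genes took 0.395% to 0.443% of these counts in the WT cultures and 0.422% to 0.453% in the Nipbl+/- cultures.

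Most numbered Zfp proteins read DNA through a row of C2H2 zinc fingers, in which a pair of cysteines and a pair of histidines hold a zinc ion and the residues between them touch the bases. Many also start with a KRAB domain, which binds the corepressor Trim28 and through it Setdb1 and HP1 proteins, and KRAB zinc finger proteins are known for silencing transposable elements. KRAB zinc finger genes have multiplied by local duplication, so that many sit in clusters of close relatives. Other numbered Zfp genes stand alone and have old, conserved roles in development.

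By the positions in the files, the 179 genes lie on 20 chromosomes, with 36 on chromosome 7, 24 on chromosome 13, 18 on chromosome 17 and 14 on chromosome 2. A gene was called clustered when it belonged to a run of 3 or more numbered Zfp genes of either strand whose neighbouring starts were within 500 kb. By this rule 102 genes were clustered, in 27 clusters, 18 were paired with a single neighbour, and 59 were single. The name Zfp319 is carried by 2 gene identifiers, which were kept apart and count as paired only with each other.

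The layout of a finger can be read from the sequence. The lines below give a finger of 5 genes that the results return to, as DNA read from the coding strand, from the first cysteine codon of a finger to the base before the next finger. The codons of the 2 cysteines and the 2 histidines are in capitals. Of each gene the unit nearest to the consensus of all such units of the 5 genes was taken, so the units look more alike than the genes are as a whole. Zfp457 and Zfp458 are neighbours in the chromosome 13 cluster, Zfp945 and Zfp40 lie in a chromosome 17 cluster, and Zfp61 lies in a chromosome 7 cluster.
Zfp457: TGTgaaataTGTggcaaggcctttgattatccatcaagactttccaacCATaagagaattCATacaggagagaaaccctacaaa
Zfp458: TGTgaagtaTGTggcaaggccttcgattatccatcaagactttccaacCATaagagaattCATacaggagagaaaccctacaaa
Zfp945: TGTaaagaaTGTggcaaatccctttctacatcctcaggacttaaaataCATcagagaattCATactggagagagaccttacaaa
Zfp40: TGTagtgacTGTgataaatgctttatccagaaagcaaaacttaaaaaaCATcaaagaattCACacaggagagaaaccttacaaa
Zfp61: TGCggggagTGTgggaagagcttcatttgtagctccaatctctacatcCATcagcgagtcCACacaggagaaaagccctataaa

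Each unit is 84 bases long and lies in the last exon of its gene on the minus strand of GRCm38 (mm10), at chr13:67293844-67293927 for Zfp457, chr13:67257624-67257707 for Zfp458, chr17:22851871-22851954 for Zfp945, chr17:23176016-23176099 for Zfp40 and chr7:24291453-24291536 for Zfp61. The units of Zfp457 and Zfp458 were identical at 82 of 84 bases (97.6%). The other pairs shared 48 to 61 bases (57.1% to 72.6%). Over the exonic sequence, 4.95% of the 50-base windows of Zfp457 occur in Zfp458 and 2.03% of those of Zfp458 in Zfp457.

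Coding sequence was found in GENCODE for 172 of the 179 genes. Translated, they held a median of 10 C2H2 fingers and at most 36, and 157 of them held 3 or more, against 2.85% of all coding genes. A pattern resembling the start of the KRAB domain was found in 90 of the 172 genes and in 1.82% of all coding genes. It was commoner among clustered genes (73 of 100) than among paired (6 of 16) or single ones (11 of 56). Clustered genes also held more fingers, with a median of 11 against 7.5 in single genes. The pattern was widened after the first feature counts were seen. Of all coding genes with the pattern, 68.3% held 3 or more fingers. A match describes the sequence and does not show a working domain, and the lack of a match does not show that the domain is absent.

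Because close relatives share sequence, reads can be hard to place. The share of a gene's 50-base windows of exonic sequence that also occur in another gene had a median of 1.09% in clustered and 0.0945% in single genes. It was 10% or more in 30 genes, 23 of them clustered, and 50% or more in 7 genes, among them Zfp708, Zfp82 and Zfp935. How the authors counted reads that match several genes is not given in the sources used here, so the values of these genes are uncertain. In 25 genes, some of them with shared windows too, over 5% of the exonic sequence is overlapped by exons of a plus strand gene, and whether the counting used strand is not given either.

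The numbered Zfp genes were expressed at low to moderate levels. Of the 179 genes, 173 had counts in all 6 cultures, Zfp663 had none in any, and 168 had enough counts to be tested. The 11 that were not tested had mean levels of 0.380 CPM (counts scaled to a common library size after TMM normalization) or less. Zfp42 (Rex1), a marker of pluripotent cells, was among these, with 1, 1 and 0 reads in the WT cultures and 1 read in each Nipbl+/- culture. Per length, the tested genes had a median of 4.01 RPKM (reads scaled by gene length and library size) over the 6 cultures, with 21 genes above 10 RPKM and 20 below 1 RPKM. The median over all 9061 tested genes was 7.71 RPKM in WT cultures, against 3.85 RPKM for the numbered Zfp genes.

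The highest level per length was that of Zfp330, a nucleolar protein without a C2H2 finger of the searched form, at 36.8 RPKM in WT and 39.3 RPKM in Nipbl+/- cultures. Zfp125, for which GENCODE holds no coding sequence, followed with a mean of 34.5 RPKM. This level is uncertain, since exons of 3110053B16Rik, also on the minus strand, overlap 18.0% of its exonic sequence. GENCODE also gives Zfp125 3109 exonic bases, more than its listed span from 20899822 to 20900867 holds, and RPKM depends on the length used. Next came Zfp106, an RNA-binding protein needed by motor neurons, at 26.3 RPKM, and Zfp146, a protein made almost wholly of fingers, at 24.4 RPKM. Zfp266, a KRAB protein known as a barrier to reprogramming of fibroblasts, stood at 24.0 RPKM and Zfp131, a BTB domain factor, at 23.1 RPKM. These last 4 differ by little next to their spread, as Zfp131 alone varied with an SD of 5.71 RPKM over the 3 WT cultures. At the other end were Zfp385b at 0.0572 RPKM, Zfp536, a repressor of neuronal differentiation, at 0.0668 RPKM and Zfp879 at 0.277 RPKM.

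Taken as whole classes, clustered genes had a lower median level per length than single genes. The median over the 98 tested clustered genes was 3.41, 3.43 and 3.69 RPKM in the WT cultures and 3.38, 3.45 and 3.72 RPKM in the Nipbl+/- cultures. Over the 53 tested single genes it was 4.07, 4.44 and 4.74 RPKM in WT and 4.31, 4.57 and 4.75 RPKM in Nipbl+/- cultures. In each of the 6 cultures the single genes had the higher median, while WT and Nipbl+/- cultures overlapped in both classes. Genes with the KRAB-like pattern had a median of 3.12 RPKM in WT against 4.75 RPKM for those without it. Among genes with the pattern the order of the classes was reversed. The 71 clustered genes with it had a WT median of 3.31 RPKM and the 11 single genes 1.73 RPKM. Without the pattern, the median was 3.99 RPKM for 25 clustered and 5.55 RPKM for 41 single genes. The part of the pattern in the difference between the classes was not tested.

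**Figure D1:**
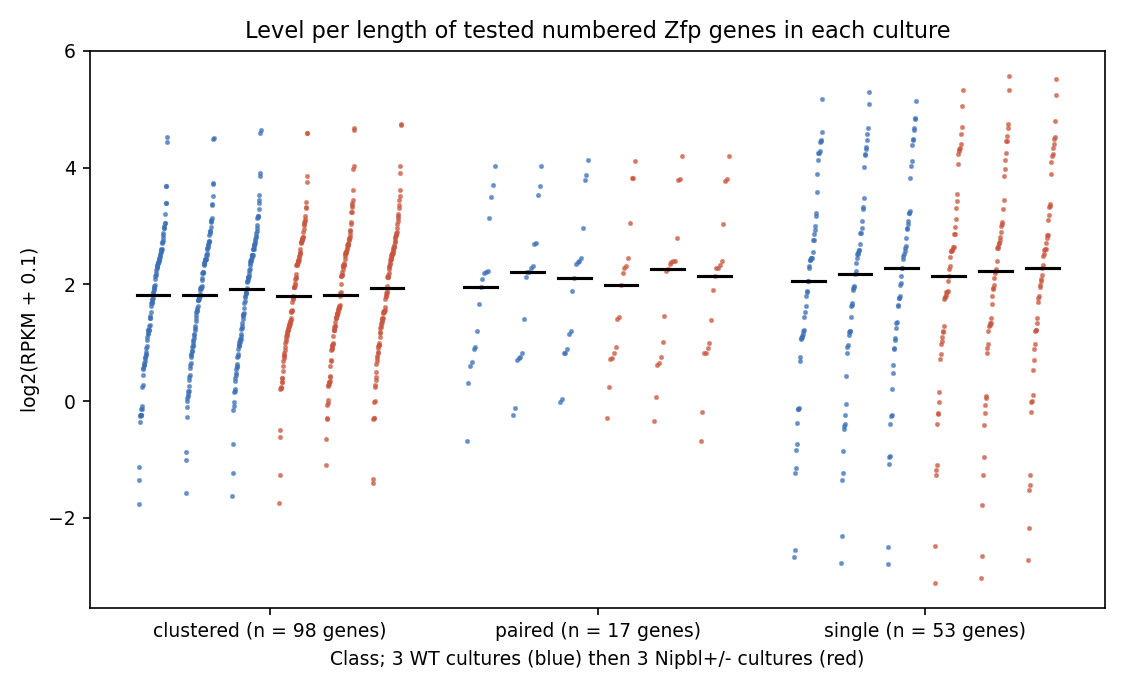
Level per length, as log2(RPKM + 0.1), of each tested numbered Zfp gene (points) in each of 6 cultures, for clustered, paired and single genes, with 3 WT cultures in blue and 3 Nipbl+/- cultures in red and the median as a black bar. Single genes spread more widely than clustered genes and have a higher median than clustered genes in every culture. The paired median is above the single median in WT replicate 2 and Nipbl+/- replicate 2 and below it in the other cultures. The WT and Nipbl+/- medians overlap.

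The comparison of genotypes asks whether loss of a Nipbl copy changes the expression of these genes. Nipbl itself stood at 128, 145 and 135 CPM in the WT cultures and at 100.7, 101.3 and 100.3 CPM in the Nipbl+/- cultures, so the groups did not overlap. It fell by 0.43 on the log2 scale (SE 0.06, edgeR quasi-likelihood test, Benjamini-Hochberg adjusted p = 0.0213), in the direction the labels give, although its adjusted p passed 0.05 without WT replicate 1 (0.0755), Nipbl+/- replicate 1 (0.0864) or Nipbl+/- replicate 2 (0.0772).

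Among the 168 tested numbered Zfp genes, 1 was higher in Nipbl+/- cultures at an adjusted p under 0.05 and none was lower, where 1.95% of all 9061 tested genes passed (1.04% higher and 0.916% lower). At an unadjusted p under 0.05, 17 numbered Zfp genes stood out (10.1%), 11 higher and 6 lower, against 16.9% of all tested genes (8.98% higher and 7.95% lower). The edgeR exact test called 3 of the 168, with Zfp608 higher and Zfp488 and Zfp945 lower, against 4.77% of all tested genes. DESeq2 also called 3, with Zfp608 and Zfp125 higher and Zfp488 lower, against 5.26% of the genes to which it gave an adjusted p. The WT and Nipbl+/- cultures did not overlap for 34 numbered Zfp genes (20.2%), 20 higher and 14 lower, against 22.8% of all tested genes (12% higher and 10.8% lower). The shares called and not overlapping were thus no larger than in the background.

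The fold changes were small. Their median was 0.045 on the log2 scale, from -0.77 to 0.68, with an SD of 0.18 across genes, where all tested genes had a median of -0.006 and an SD of 0.32. Their median SE was 0.10, close to that of all tested genes. Of the 168 genes, 104 lay above 0 (61.9%), against 48.4% of all tested genes. Only 6 lay beyond 0.5 in either direction (3.57%, against 8.45% of all), namely Zfp791, Zfp608, Zfp345 and Zfp125 upward and Zfp536 and Zfp641 downward. No test was made of the median or of the share above 0.

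**Figure D2:**
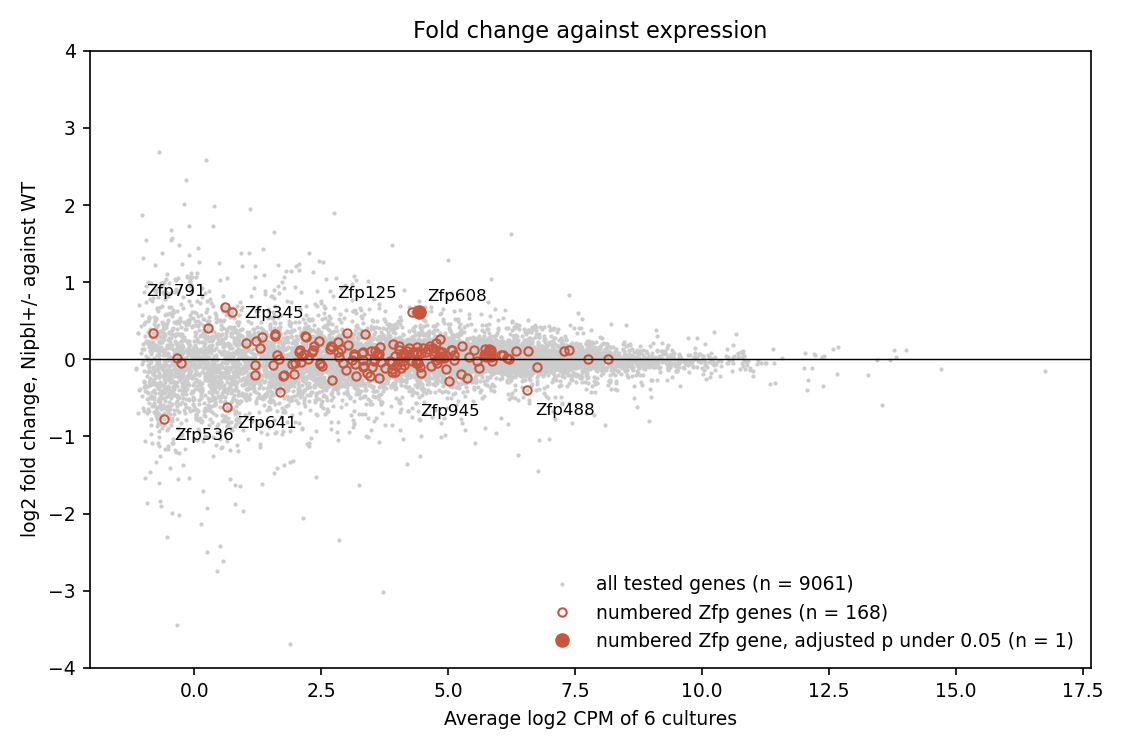
The log2 fold change of Nipbl+/- against WT cultures plotted against average log2 CPM, for all 9061 tested genes (grey points) and the 168 tested numbered Zfp genes (red circles), with Zfp608, the gene with an adjusted p under 0.05, filled. The numbered Zfp genes lie close to 0 and between -0.77 and 0.68.

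The gene past the threshold was Zfp608 (ENSMUSG00000052713), a single gene on chromosome 18 from 54888045 to 54990180. Zfp608 is a large nuclear protein with only 1 C2H2 finger that was found to restrain the Rag genes in thymocytes. It stood at 14.6, 17.0 and 19.0 CPM in the WT cultures (16.9 ± 2.19, SD, n = 3) and at 22.7, 28.0 and 26.9 CPM in the Nipbl+/- cultures (25.9 ± 2.82, SD, n = 3). Every Nipbl+/- culture was above every WT culture. Zfp608 rose by 0.62 on the log2 scale (SE 0.12), or 1.53-fold, with an adjusted p of 0.0428 by edgeR's quasi-likelihood test. The call is close to the threshold: with the sex of the culture as a covariate the adjusted p was 0.0642, and with each culture left out in turn it was above 0.05 in all 6 fits, from 0.0501 to 0.147. The gene shares almost no sequence with other genes (0.0706% of its windows).

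Its closest relative, Zfp609, whose protein is known to bind Nipbl in neural progenitor cells, was also measured. Zfp609 stood at 24.5, 26.3 and 25.2 CPM in WT and 28.5, 26.1 and 27.5 CPM in Nipbl+/- cultures. A WT culture lay within the range of the Nipbl+/- cultures, with the Nipbl+/- culture higher in 8 of 9 pairs. For Zfp609 the log2 fold change was 0.11 (SE 0.07, adjusted p = 0.462 by edgeR's quasi-likelihood test). The difference in response between Zfp608 and Zfp609 was not tested.

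The other genes whose Nipbl+/- cultures all lay above the WT cultures did not pass the threshold. The largest of these differences was that of Zfp791, a single gene of chromosome 8 with the KRAB-like pattern, which had 25, 25 and 23 reads in the WT cultures and 37, 40 and 45 reads in the Nipbl+/- cultures. Its log2 fold change was 0.68 (SE 0.23, adjusted p = 0.182 by edgeR's quasi-likelihood test). Zfp345, in a chromosome 2 cluster, had 23, 29 and 30 reads in WT and 38, 53 and 41 reads in Nipbl+/- cultures, with a log2 fold change of 0.61 (SE 0.22, edgeR adjusted p = 0.205). Both rest on few reads, and 29.8% of the windows of Zfp345 occur in another gene.

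Zfp61, a clustered gene of chromosome 7 with the KRAB-like pattern, stood at 6.72, 7.03 and 7.28 CPM in WT and 7.89, 9.06 and 9.74 CPM in Nipbl+/- cultures. Its log2 fold change was 0.34 (SE 0.12, edgeR adjusted p = 0.205). The remaining genes of this kind among the 8 largest were Zfp579 (0.29), Zfp429 (0.23), Zfp354c (0.21) and Zfp770 (0.20), with edgeR adjusted p between 0.262 and 0.413. Their gaps between groups were narrow, as in Zfp354c, whose highest WT culture was at 26.7 CPM and whose lowest Nipbl+/- culture was at 28.3 CPM.

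Zfp125 had a fold change as large as that of Zfp608 without separating the groups. It stood at 12.5, 19.7 and 13.9 CPM in WT and at 18.8, 26.5 and 25.2 CPM in Nipbl+/- cultures, so WT replicate 2 lay above the lowest Nipbl+/- culture. The log2 fold change was 0.61 (SE 0.19, edgeR adjusted p = 0.144), and without WT replicate 2 it was 0.83 with an edgeR adjusted p of 0.0394. Of its windows, 31.6% occur in other genes.

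Among genes that were lower in all Nipbl+/- cultures, Zfp945 had the smallest p-value by edgeR's quasi-likelihood test. This clustered gene of chromosome 17 has 18 fingers and stood at 34.3, 36.1 and 36.3 CPM in WT and 29.3, 30.2 and 28.7 CPM in Nipbl+/- cultures. Each group was tight, and the groups were well apart. Its log2 fold change was -0.28 (SE 0.06, edgeR adjusted p = 0.0595), just outside the threshold. The adjusted p was 0.0445 with the edgeR exact test and 0.0556 with DESeq2. By the quasi-likelihood test it was 0.116 with library size alone and 0.0960 to 0.163 with single cultures left out.

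Zfp488, a factor that works with Olig2 in oligodendrocyte differentiation, was also lower in all Nipbl+/- cultures. It stood at 100.3, 109 and 112 CPM in WT and at 89.2, 68.6 and 86.4 CPM in Nipbl+/- cultures. The Nipbl+/- cultures spread more widely, with replicate 2 the lowest. For Zfp488 the log2 fold change was -0.40 (SE 0.10, edgeR adjusted p = 0.0835), and it passed the threshold with the edgeR exact test (0.0238), with DESeq2 (0.0049) and without a filter on low counts (0.0392). The gene shares 15% of its windows, mostly with 4930533N22Rik.

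Zfp521, which holds back adipocyte and B cell differentiation through Ebf1, stood at 44.1, 38.7 and 51.1 CPM in WT and at 37.7, 38.3 and 36.9 CPM in Nipbl+/- cultures. The Nipbl+/- cultures lay just under the lowest WT culture. The log2 fold change was -0.25 (SE 0.10, edgeR adjusted p = 0.248). Its relative Zfp423, a determinant of preadipocytes, was low in these cells and overlapped between groups, with a log2 fold change of -0.20 (SE 0.21, edgeR adjusted p = 0.685).

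The other genes among the 8 largest decreases without overlap were Zfp712 (-0.42), Zfp457 (-0.26), Zfp688 (-0.21), Zfp459 (-0.21) and Zfp113 (-0.18), with edgeR adjusted p between 0.271 and 0.393. Zfp712, Zfp457 and Zfp459 lie in the same chromosome 13 cluster, which also holds genes that lay higher. Exons of plus strand genes overlap 12.5% of the exonic sequence of Zfp459.

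**Figure D3:**
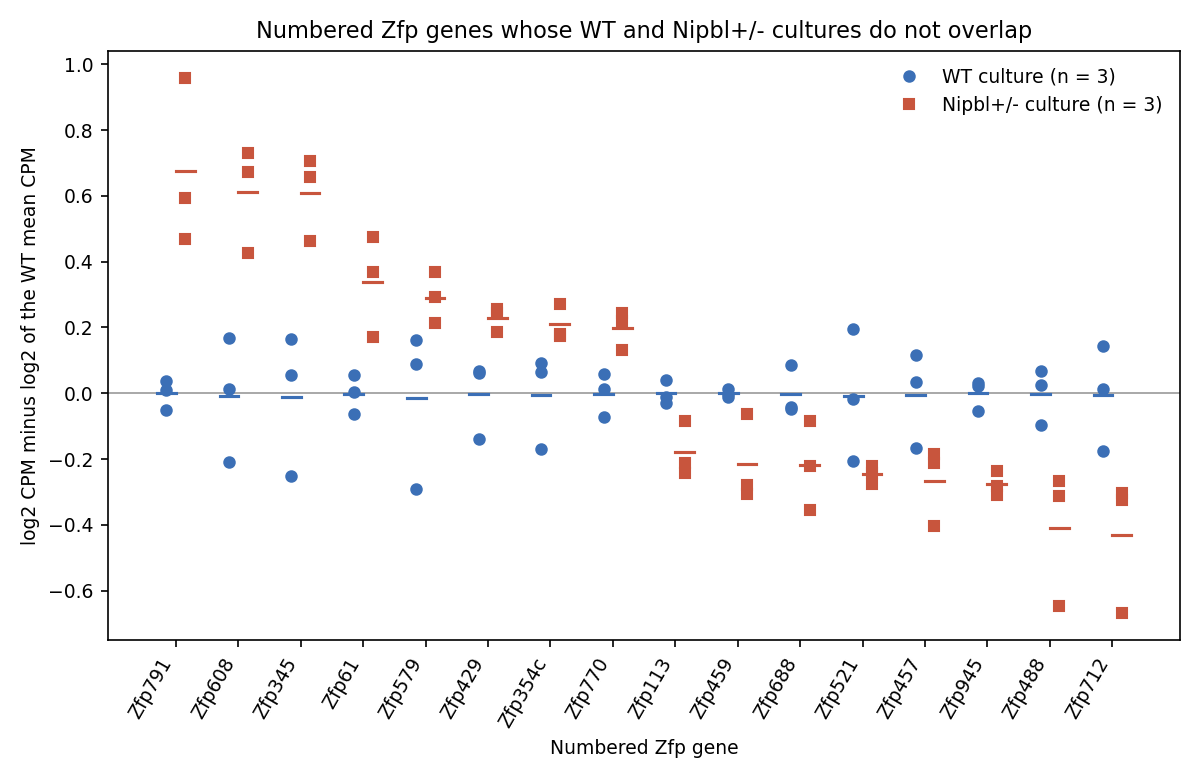
Expression in each culture, as log2 CPM minus log2 of the mean WT CPM, for the 8 numbered Zfp genes with the largest increase and the 8 with the largest decrease among those whose groups do not overlap, with WT cultures as blue circles, Nipbl+/- cultures as red squares and group means as short bars. Zfp608 alone of these has an adjusted p under 0.05 by edgeR's quasi-likelihood test, and for several genes the gap between groups is smaller than the spread within one.

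Several numbered Zfp genes have roles that bear on fibroblasts or chromatin, and apart from Zfp608 none of those that follow passed the threshold of edgeR's quasi-likelihood test. Zfp277, which brings Polycomb proteins to the Ink4a/Arf locus in MEFs, stood at 51.0, 48.6 and 52.5 CPM in WT and 47.1, 47.4 and 45.9 CPM in Nipbl+/- cultures. The groups were close but did not overlap, with a log2 fold change of -0.11 (SE 0.05, edgeR adjusted p = 0.318). Zfp644, a partner of the histone methyltransferases Ehmt1 and Ehmt2, had a log2 fold change of 0.12 (SE 0.06, edgeR adjusted p = 0.321), again with no overlap.

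Zfp335, a component of histone H3K4 methyltransferase complexes, had a log2 fold change of -0.19 (SE 0.08, edgeR adjusted p = 0.278), and 28.3% of its exonic sequence is overlapped by plus strand exons. Zfp217, an oncogene product that joins the CoREST complex, was at 0.17 (SE 0.08, edgeR adjusted p = 0.301). Zfp385a, a cofactor of p53, was at -0.17 (SE 0.10, edgeR adjusted p = 0.400). The log2 fold changes of Zfp322a, Zfp292, Zfp266, Zfp280c, Zfp467, Zfp64, Zfp597, Zfp182, Zfp106 and Zfp330 lay between -0.09 and 0.13. For genes such as Zfp106, the SE was small (log2 fold change -0.003, SE 0.05), while Zfp385b (0.34, SE 0.59) was poorly measured.

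Clustered genes were compared with single genes by the position rule above. The median log2 fold change was 0.059 over the 98 tested clustered genes, 0.024 over the 53 single genes and -0.016 over the 17 paired genes. Of the clustered genes 66.3% lay above 0, of the single genes 58.5% and of the paired genes 47.1%, against 48.4% of all tested genes. No clustered gene had an adjusted p under 0.05 by edgeR's quasi-likelihood test. The exact test called Zfp945 and DESeq2 called none. At an unadjusted p under 0.05 there were 11 clustered genes (11.2%), 6 single genes (11.3%) and no paired gene, against 16.9% of all tested genes. Single genes spread more widely, with an SD of 0.24 against 0.16, and 5 of the 6 genes beyond 0.5 were single, the other being Zfp345. Some of these genes were poorly measured. Zfp791 and Zfp345 had few reads, and Zfp536, among the lowest in level, ranged from -1.26 to -0.38 with cultures left out. The median SE was 0.095 for single and 0.102 for clustered genes, and the part of low counts in the spread was not tested.

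The mean log2 CPM of the clustered genes was 3.46, 3.55 and 3.56 in the WT cultures and 3.55, 3.58 and 3.60 in the Nipbl+/- cultures. That of the single genes was 4.18, 4.21 and 4.25 in WT and 4.19, 4.24 and 4.27 in Nipbl+/- cultures. The groups overlapped in both classes. The clustered mean minus the single mean was -0.713, -0.668 and -0.696 in WT and -0.644, -0.654 and -0.663 in Nipbl+/- cultures, which did not overlap, although WT replicate 2 and Nipbl+/- replicate 3 were nearly equal. This is a description and no test was made of it.

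Splitting the classes by the KRAB-like pattern gave medians of 0.070 for 71 clustered genes with it and 0.056 for 25 clustered genes without it. Among single genes the medians were -0.003 for 11 genes with the pattern and 0.024 for 41 without it. The 29 tested genes with 10% or more shared windows had a median of 0.087. It was 0.003 over the 40 with 1% to 10% and 0.056 over the 97 under 1%. The part of shared sequence in these medians was not tested.

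Most clusters held genes on both sides of 0. Of the 12 clusters with 3 or more tested genes, 10 had a median above 0, with medians from -0.05 to 0.21, and 9 held genes of both signs. The largest cluster measured, on chromosome 13 from 66670769 to 67827002, had 16 tested genes, 9 above 0 and 7 below, from Zfp712 (-0.42) to Zfp708 (0.30). The neighbours Zfp457 and Zfp458, whose printed units differ at few bases, lay on opposite sides. Zfp457 stood at 6.26, 7.61 and 7.19 CPM in WT and 6.18, 5.31 and 6.06 CPM in Nipbl+/- cultures, while Zfp458 stood at 6.03, 5.92 and 5.89 CPM in WT and 6.99, 6.69 and 6.45 CPM in Nipbl+/- cultures. Neither gene's groups overlapped, yet neither passed the threshold (edgeR adjusted p = 0.363 and 0.494).

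The chromosome 17 cluster from 21008941 to 23599487 held 8 tested genes with a median of 0.11. Its extremes were Zfp945 (-0.28) and Zfp40 (0.32), which lie next to each other among the tested genes. Zfp40 stood at 9.80, 8.68 and 8.77 CPM in WT and 9.79, 11.9 and 12.4 CPM in Nipbl+/- cultures, with Nipbl+/- replicate 1 inside the WT range and an edgeR adjusted p of 0.243.

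All tested genes lay above 0 in 3 clusters. These were the 5 genes of the Zfp354 cluster on chromosome 11 (median 0.21), from Zfp879 (0.01) to Zfp354b (0.33), the 3 genes on chromosome 2 (median 0.17), from Zfp442 (0.09) to Zfp345 (0.61), and the 4 genes on chromosome 6 (median 0.11), from Zfp467 (0.07) to Zfp786 (0.40). The lowest medians were those of a chromosome 9 cluster of 3 tested genes (-0.05), from Zfp653 (-0.08) to Zfp599 (0.09), and of a chromosome 7 cluster of 7 (-0.04), from Zfp940 (-0.17) to Zfp82 (0.12). The other clusters had medians between 0.03 and 0.09, with Zfp61, Zfp629, Zfp763, Zfp868 and Zfp266 highest and Zfp94, Zfp688, Zfp799, Zfp869 and Zfp560 lowest. Genes of a cluster are not replicates, and no test of a cluster was made.

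**Figure D4:**
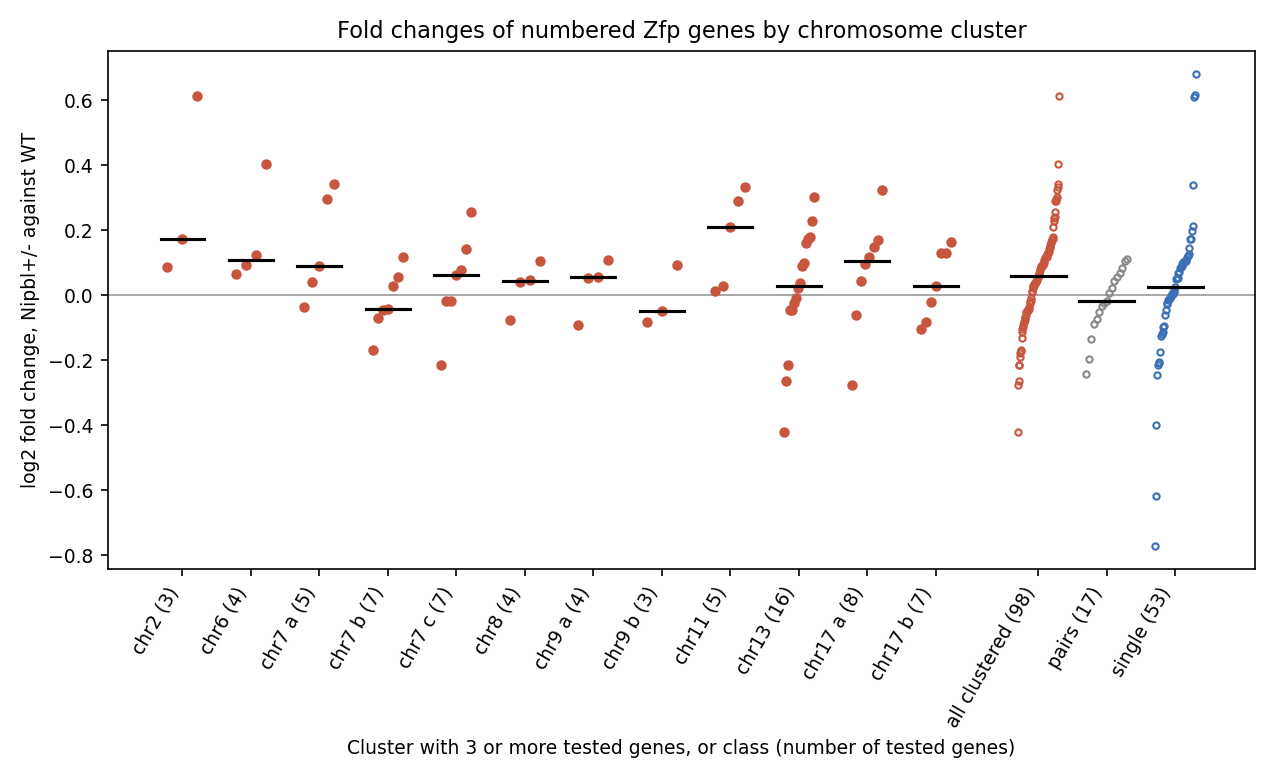
The log2 fold change of Nipbl+/- against WT cultures for each tested numbered Zfp gene (points), in the 12 clusters with 3 or more tested genes, named by chromosome with letters in order of position, and over all clustered, paired and single genes, with the median as a black bar and the number of genes in brackets. Most clusters hold genes on both sides of 0, and the widest spread is among single genes.

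Corepressors of the KRAB pathway were read beside the family. Of 33 names listed, 12 were measured and tested, and most of the others, Trim28 among them, lie on the plus strand. In Nipbl+/- cultures 11 of the 12 lay above 0, against 48.4% of all tested genes, with a median log2 fold change of 0.13. At an unadjusted p under 0.05 there were 5 of the 12, all higher, against 16.9% of all tested genes. At an adjusted p under 0.05, 1 rose, where 1.95% of all passed. This was Chd3, a remodelling enzyme of the NuRD complex, at 474, 530.1 and 489 CPM in WT and 621, 618 and 604 CPM in Nipbl+/- cultures (log2 fold change 0.30, edgeR adjusted p = 0.0323). With a sex covariate or with WT replicate 1, WT replicate 3 or any Nipbl+/- replicate left out, no gene of the list passed. Dnmt1, the maintenance DNA methyltransferase, was at 123, 121 and 132 CPM in WT and 147, 147 and 159 CPM in Nipbl+/- cultures without passing (edgeR adjusted p = 0.0626). Setdb1, the histone methyltransferase that Trim28 recruits, overlapped between the groups (edgeR adjusted p = 0.462).

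Other families with C2H2 fingers showed small medians too. The median log2 fold change was 0.06 over 18 tested Zbtb genes, 0.04 over 10 Zkscan and Zscan genes and 0.01 over 11 Klf and Sp genes. At an unadjusted p under 0.05 there were 5 of these genes, 1 of them higher and 4 lower, where 16.9% of all tested genes passed.

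In bulk RNA, fewer cells of a type and less RNA per cell cannot be told apart. The labelled cell type could be checked only through Fap, Fn1 and Prrx1, since the other 13 of 16 fibroblast markers lie on the plus strand, and these summed to 14744.7 to 17312.6 CPM in WT and 16484.6 to 18482.7 CPM in Nipbl+/- cultures. All 8 measured macrophage markers of a list of 12 lay above 0, against 48.4% of all tested genes, and the other 4 lie on the plus strand. The 8 had a median log2 fold change of 1.04, and none of them had an adjusted p under 0.05 by edgeR's quasi-likelihood test. Their summed level was 56.5 to 74.8 CPM in WT and 89.7 to 178.7 CPM in Nipbl+/- cultures, and the part of these markers in the values of Zfp608 or any other numbered Zfp gene was not tested. Near the lower limit of measurement, the 3 measured epithelial markers summed to 0.363 to 0.534 CPM in WT and 1.03 to 2.53 CPM in Nipbl+/- cultures and the 3 neural markers to 0.418 to 1.11 CPM and 1.31 to 1.99 CPM, without overlap and with their part not tested. The endothelial and muscle sums overlapped between the groups. Ddx3y counts exceeded Xist counts in 2 of 3 WT and 1 of 3 Nipbl+/- cultures, so the groups were not matched for sex by this measure.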

How the data were processed

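RNA-seq counts of 3 WT and 3 Nipbl+/- MEF cultures were analysed. The authors aligned rRNA-depleted reads with TopHat 2.0.10 to mm10 with an Ensembl annotation and deposited, for each gene, a raw read count. The authors also deposited an RPKM value, which scales the count by gene length and library size; RPKM was used for levels between genes and for no test. The counting tool is not given in the sources used here. The labels name mouse ES cells in the RNA extraction text but MEFs as the source of every sample.

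Counts were filtered with filterByExpr (minimum count 10), normalized by TMM and compared between genotypes over all 9061 genes kept by glmQLFTest of edgeR 4.0.16 (R 4.3.3), with no covariate. Adjusted p is by Benjamini-Hochberg, and 0.05 was the threshold. The SE is derived from the quasi-likelihood F statistic. Mean log2 CPM over a class of genes used a prior count of 2. P-values set the difference between genotypes against the spread among cultures of the same genotype. The methods call these cultures biological replicates. By the same methods the embryos came from a single pregnant mouse, so the spread between litters was not measured. The steps were tested on simulated data.

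Fingers and the KRAB-like pattern were searched in coding sequence translated from GENCODE release M21 (GRCm38), which held 177 of the 179 gene identifiers. A finger was 2 cysteines 2 to 4 residues apart, 12 residues, and 2 histidines 3 to 5 residues apart, and the KRAB-like pattern was searched in the first 250 residues.

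Named genes were every numbered Zfp gene past the threshold, the 8 largest changes in each direction among genes with an average log2 CPM above 0 whose groups did not overlap, the 6 highest and 3 lowest levels, the extremes of each cluster and a list of genes with known roles. Zfp125, Zfp641, Zfp458, Zfp82, Zfp935 and Zfp40, where the text describes them for other reasons, and the corepressors Chd3, Dnmt1 and Setdb1 were chosen after their values were seen, as were the 5 genes whose finger is printed. The members and all lists were chosen with earlier results of these data known. Alternatives were upper-quartile normalization, library size alone, DESeq2 size factors in edgeR, the edgeR exact test, DESeq2 1.42.0, other filters, the replicate number as a block, a sex covariate, leaving out single cultures, and other cluster rules.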

Additional observations from a re-analysis of the deposited data

How the results depend on the processing

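The count of numbered Zfp genes higher in Nipbl+/- cultures was 1 (Zfp608) in the reported fit, 2 with DESeq2 and 0 with the sex covariate, and the count lower was 0 in the reported fit, 2 with the edgeR exact test, 1 with DESeq2 and 1 without a filter on low counts. With single cultures left out, the count higher was 0 to 1, and the 1, without WT replicate 2, was Zfp125 and not Zfp608. With upper-quartile normalization the median log2 fold change of all, clustered and single tested numbered Zfp genes was 0.034, 0.048 and 0.013. Library size alone gave 0.083, 0.097 and 0.063. With the sex covariate it was 0.076 for clustered and 0.038 for single genes, and with neighbouring starts within 250 kb it was 0.013 for single genes. With cultures left out it ranged from 0.026 to 0.065 for all of the numbered Zfp genes. For clustered genes it ranged from 0.027 to 0.085 and for single genes from 0.024 to 0.050. None of these medians turned negative under the alternatives run. The median over all 9061 tested genes also moved with the normalization. It was -0.006 in the reported fit, -0.017 with upper-quartile normalization and 0.032 with library size alone. The number of numbered Zfp genes above 0 ranged from 96 to 120. The count of corepressor genes past the threshold, 1 in the reported fit, was 3 with DESeq2, 2 without a filter, 0 with the sex covariate and 0 to 1 with cultures left out. Nipbl ranged from -0.474 to -0.385 with cultures left out and missed the threshold without WT replicate 1, Nipbl+/- replicate 1 or Nipbl+/- replicate 2. The cause of these changes was not tested, and a fit with 5 cultures has fewer samples.

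Replicate numbers did not pair the cultures, since deviations of cultures with the same number correlated between -0.142 and -0.036 and those with different numbers between -0.074 and 0.117. With a replicate block the count of numbered Zfp genes called stayed at 1 (Zfp608), that of corepressors was 0, and over all genes 34 were higher and 52 lower, against 94 and 83 without it. Over all genes the edgeR exact test called 219 higher and 213 lower, DESeq2 237 and 212, and no filter 173 and 152. Leaving out a culture gave between 1 and 130 higher and between 2 and 138 lower. Depth limits the 11 genes that were not tested and those with few reads, such as Zfp791.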
